A study of Mus musculus with 2 samples.

Results

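The cytochrome P450 (Cyp) and carboxylesterase (Ces) genes were examined in skin tumours that UVB had induced in male mice wild type for P2ry6 or carrying the P2ry6-/- genotype. P2ry6 encodes a G protein-coupled receptor for the nucleotide UDP. Members were all genes whose name on the array was Cyp or Ces followed by a digit. Cyp51, Cyp26a1, Cyp26b1, Cyp26c1 and Cyp4f39, enzymes of sterol synthesis, retinoic acid breakdown and barrier lipid synthesis, were left out. This gave 116 genes (97 Cyp and 19 Ces) of 37321 on the array, measured with 153 of 56594 probes.

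Cytochrome P450 enzymes are haem proteins that insert an oxygen atom into lipids, steroids, vitamins and foreign chemicals. The microsomal ones use electrons passed on by cytochrome P450 oxidoreductase. Carboxylesterases hydrolyse ester and amide bonds in lipids, drugs and retinyl esters. Both families are best known from the liver, where nuclear receptors and the aryl hydrocarbon receptor set the transcription of many members, and both are also present in epidermis and its glands. Several members lie in tandem gene clusters, and their transcripts can be similar enough for a probe to match more than 1 of them.

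The study kept 20 pairs of P2ry6+/+ and P2ry6-/- mice, 2 months old at the start, and irradiated the shaved back with UVB. The dose was 180 mJ/cm2 for the first 10 weeks, was raised by 10 mJ/cm2 each week to 300 mJ/cm2 at week 22, and stayed there to week 40. Total RNA of a tumour sample from each genotype was labelled with Cy3 and hybridised to a one-colour array, 1 array per genotype and 2 in all. Neither array came from unirradiated skin, so both carry the same UVB exposure. The number of tumours and mice behind each RNA, the mouse strain, and the part of P2ry6 that was deleted are not given in the sources used here.

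With 1 array per genotype there was no replicate and no test, and each difference compares these 2 arrays and not the genotypes at large. P2ry6 itself went against the label. Its signal was 137 on the wild-type array and 318 on the knockout array for one probe, and 364 and 835 for the other. The log2 differences of the probes, 1.29 and 1.28, put P2ry6 higher on the knockout array, and where these probes lie relative to the deleted part was not analysed here. The arrays are therefore called WT-labelled (wild type) and KO-labelled (knockout) throughout. The labelled tissue was checked on keratinocyte markers: all 9 on the array were above background on both arrays, with the basal keratin Krt14 at 257780 and 245396 signal units.

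A gene's difference is the log2 signal on the KO-labelled array minus that on the WT-labelled array, after each array was scaled to its 75th percentile (347 and 327 signal units). Negative values are lower on the KO-labelled array. Over the 19873 genes measured on both arrays the median difference was −0.06 with an SD of 0.65. Repeat spots of a probe differed between the arrays with an SD of 0.12 (292 probes), and different probes of a gene with an SD of 0.38 (6731 genes). The scanner software's own error on a member's difference ran from 0.12 to 0.35 with a median of 0.21. These are technical errors only. Set against the 8 spike-in probes instead, each value came out 0.47 lower, so a value between 0 and 0.47 has no settled sign.

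Of the 116 genes, 36 were well above background on both arrays, 11 on the WT-labelled array only, 2 on the KO-labelled array only and 67 on neither. The 67 make up 57.8% of the members, beside 41.1% of all genes. The 11 make up 9.48% of the members, beside 2.92% of all genes, and the 2 make up 1.72%, beside 2.71%. Among those 36, 6 were lower by 2-fold or more on the KO-labelled array, 2 were higher by as much and 28 were neither. The 6 are 16.7% of the 36, where 5.04% of all measured genes were this much lower. They include Cyp2b9, whose probe is listed for Cyp2b10 as well. The 2 are 5.56% of the 36, where 4.82% of all measured genes were this much higher. The median difference of the 36 was −0.33, with 21 below 0 and 15 above. By family, the median was −0.18 over 31 Cyp genes and −0.43 over 5 Ces genes. Without the filter on dim probes, when all 97 and 19 count, both medians were above 0, at 0.061 and 0.045. The median of all genes was then 0.049, so these values lie near that of the array as a whole.

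A gene that only 1 array detected has no measured ratio. It was given a bound, its bright level against the higher of its own dim level and the lowest level well above background on the dim array. Of the 11 members bright on the WT-labelled array only, 6 (54.5%) had a bound of at least 2-fold, where 24.4% of all such genes did. With normexp, another way to correct the background, 4 of the 6 kept such a bound. Neither of the 2 members bright on the KO-labelled array only reached a 2-fold bound, which 22.6% of all such genes did.

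**Figure D1:**
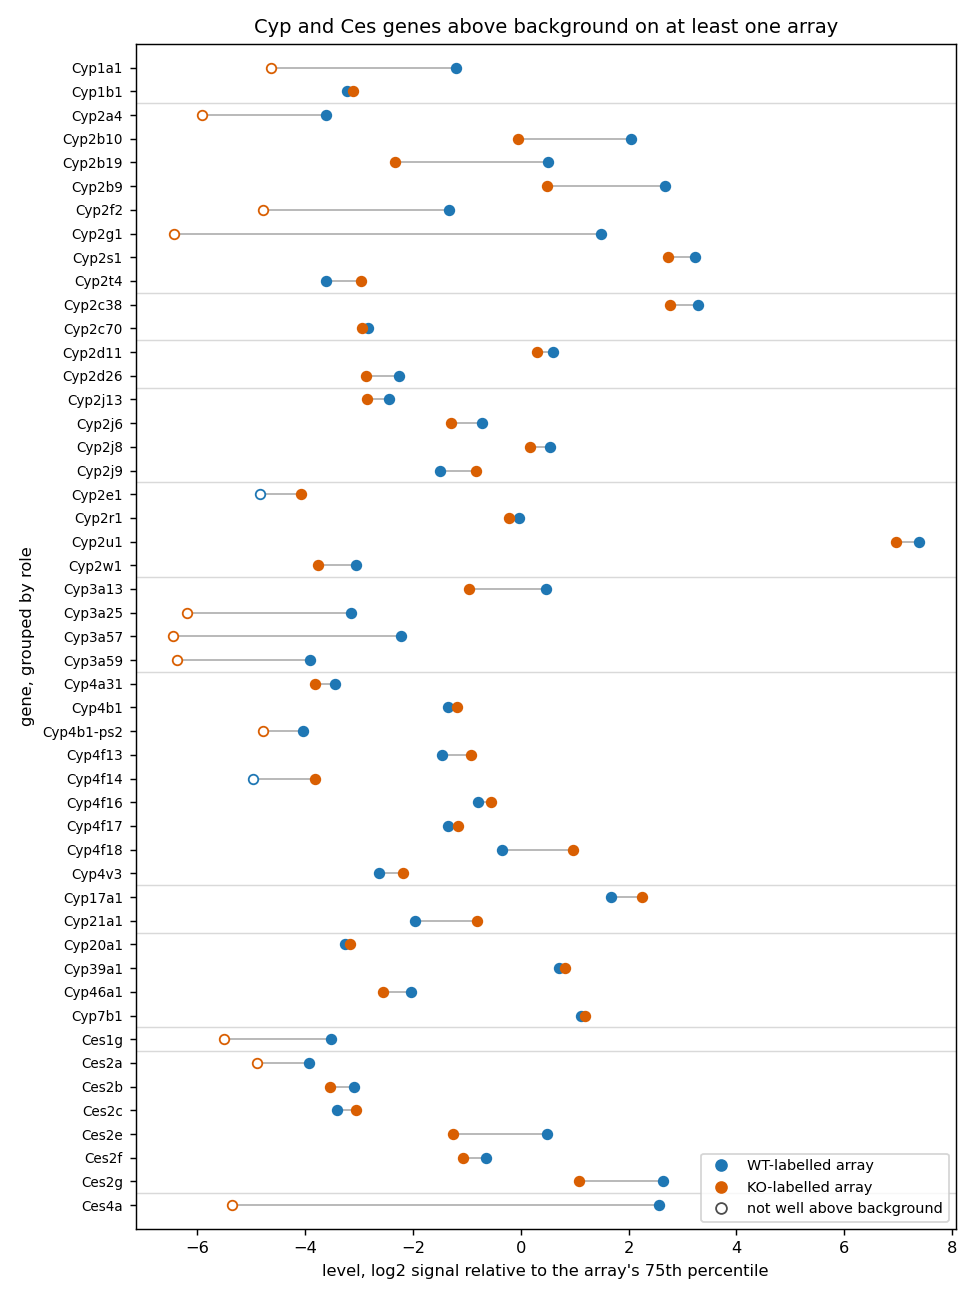
Level of each of the 49 Cyp and Ces genes above background on at least one array, as log2 signal relative to the array's 75th percentile, with blue points for the WT-labelled and orange points for the KO-labelled array. Open points were not well above background, grey lines join the arrays, and only points of the same row can be compared, since each gene has its own probes. The longest lines, of Ces4a and Cyp2g1, end in an open orange point.

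The Cyp2b genes, whose enzymes oxidise drugs, steroids and fatty acids, were the P450 genes furthest below 0 among those measured on both arrays. Cyp2b19, an arachidonic acid epoxygenase known from differentiating keratinocytes, had a signal of 491 on the WT-labelled and 65.0 on the KO-labelled array, a log2 difference of −2.83 (7.11-fold lower). A second Cyp2b19 probe read 56.7 and 3.60, the latter not well above background, and the last was above background on neither array. Cyp2b10, the classical target of the receptor CAR in liver, was measured by a pair of probes at 6098 and 1420 signal units and at 338 and 70.0. Its difference was −2.10 ± 0.12 (SD, n = 2 probes), which is 4.30-fold lower. Cyp2b9 stood at 2225 and 461 signal units, a difference of −2.19 (4.55-fold lower), but its probe is listed for Cyp2b10 as well, so these genes cannot be told apart there. On mm9, the build of the array's probe positions, these probes lie at chr7:27557545-27557604 (Cyp2b19), chr7:26711522-26711581 and chr7:26702056-26702115 (Cyp2b10) and chr7:26995607-26995666 (Cyp2b9). Cyp2b13 and Cyp2b23 were above background on neither array.

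The bases just before the transcription start of these 3 genes are shown because the genes lie in 1 cluster and their probes read lower on the same array. The Cyp2b9 reading cannot be separated from Cyp2b10. Each window is the 250 bases upstream of the RefSeq start on GRCm38.p6, 5′ to 3′ on the gene's strand. Capitals mark TATAA, the core of a TATA box, AGGTCA, the hexamer that many nuclear receptors bind, and GCGTG, the core to which the aryl hydrocarbon receptor binds, each searched on both strands. The windows lie at chr7:25897408-25897657 (+) for Cyp2b10, chr7:26173159-26173408 (+) for Cyp2b9 and chr7:26756892-26757141 (+) for Cyp2b19.
Cyp2b10: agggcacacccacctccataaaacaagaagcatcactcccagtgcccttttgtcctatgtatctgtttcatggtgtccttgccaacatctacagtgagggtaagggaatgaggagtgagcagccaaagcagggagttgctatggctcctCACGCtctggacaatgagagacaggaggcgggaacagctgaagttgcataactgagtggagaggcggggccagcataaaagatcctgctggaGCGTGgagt
Cyp2b9: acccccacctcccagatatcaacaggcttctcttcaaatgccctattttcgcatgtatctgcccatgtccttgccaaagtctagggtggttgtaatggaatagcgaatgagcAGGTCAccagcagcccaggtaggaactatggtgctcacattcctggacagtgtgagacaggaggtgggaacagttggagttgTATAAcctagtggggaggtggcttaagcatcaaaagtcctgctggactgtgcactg
Cyp2b19: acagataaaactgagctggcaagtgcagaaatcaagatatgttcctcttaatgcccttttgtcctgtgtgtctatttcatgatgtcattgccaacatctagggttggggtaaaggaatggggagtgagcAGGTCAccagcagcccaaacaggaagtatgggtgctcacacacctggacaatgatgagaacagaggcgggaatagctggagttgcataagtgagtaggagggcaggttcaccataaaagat
In a global alignment, Cyp2b10 and Cyp2b9 were identical over 70.0% of the aligned columns, Cyp2b10 and Cyp2b19 over 66.5%, and Cyp2b9 and Cyp2b19 over 63.1%. Cyp2b9 and Cyp2b19 each held AGGTCA once, 138 and 121 bases upstream. Cyp2b10 had no AGGTCA in its window and held GCGTG at 101 and 9 bases upstream.

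Further P450 genes of the same stretch of chromosome 7 were at background on the KO-labelled array. Cyp2g1, an enzyme known from olfactory mucosa, had 971 signal units on the WT-labelled array and 3.79, not well above background, on the KO-labelled array, at least 52.7-fold lower. Cyp2f2, the naphthalene-oxidising enzyme of lung airway cells, went from 138 to 11.9 and was at least 7.49-fold lower. With normexp background correction the bounds shrank to 12.2-fold for Cyp2g1 and 2.52-fold for Cyp2f2. Cyp2a4, a steroid hydroxylase whose probe is listed for Cyp2a5 too, went from 28.3 to 5.43, a bound of only 1.53-fold. The other measured genes of the stretch were Cyp2s1, an epithelial P450 that metabolises retinoids and prostaglandins, at 3248 and 2183 (−0.49), and Cyp2t4 at 28.3 and 42.1 (0.66).

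The stretch ran from Cyp2s1 to Cyp2t4 at chr7:26587495-27943565 on mm9, with the Cyp2g1 probe at chr7:27606111-27606170 and the Cyp2f2 probe at chr7:27918570-27918629. It held 13 members, of which 5 were measured on both arrays with a median of −2.10, 3 on the WT-labelled array only and 5 on neither. Between the outermost member probes lay the probes of 10 other genes. Of these, 6 were measured on both arrays, with a median of −0.33 and a range of −0.90 to 0.61, and none was 2-fold apart. With the flanking genes drawn in the plot of the cluster, 25 other genes were measured and none was 2-fold apart, at a median of −0.04. At the shares over all measured genes, 5.04% lower and 4.82% higher, few of so few genes would be 2-fold apart.

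**Figure D2:**
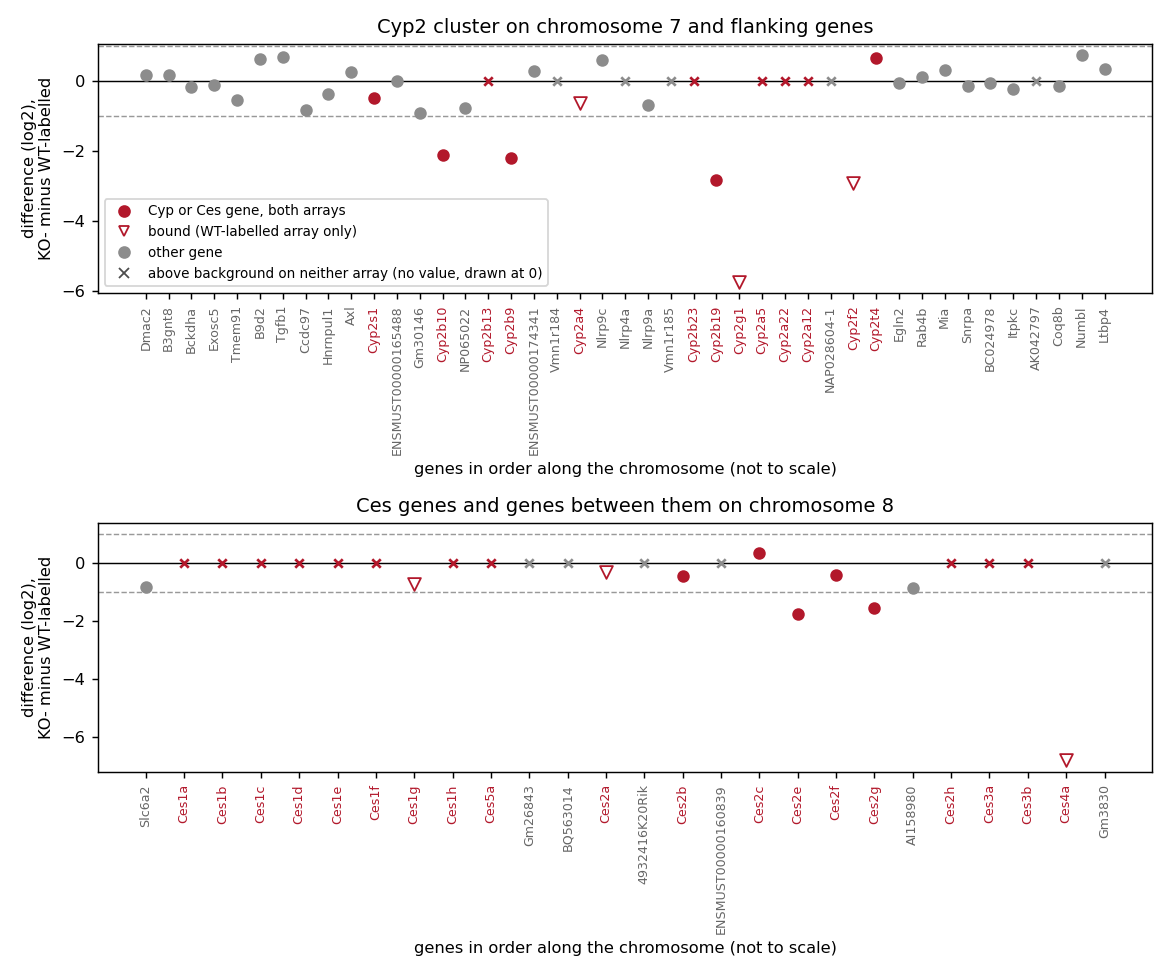
Log2 difference of each gene, KO-labelled minus WT-labelled array, in order along chromosome 7 around the Cyp2 genes (top) and along chromosome 8 over the Ces genes (bottom), with the members in red, other genes in grey and dashed lines at 2-fold. Open triangles are bounds, crosses mark genes above background on neither array, and the points past the lower dashed line are all red, at Cyp2b10, Cyp2b9, Cyp2b19, Cyp2g1 and Cyp2f2 on top and at Ces2e, Ces2g and Ces4a below.

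The Cyp1 genes encode enzymes that oxidise polycyclic aromatic hydrocarbons. Cyp1a1, the standard readout of the aryl hydrocarbon receptor, had 151 signal units on the WT-labelled array and 13.2, not well above background, on the KO-labelled array, at least 8.19-fold lower (probe at chr9:57551535-57551594, mm9), a bound that shrank to 2.81-fold with normexp. Cyp1b1, a second target of the receptor, stood at 37.2 and 37.9 (0.11), and the liver enzyme Cyp1a2 was above background on neither array. The window before the start of Cyp1a1 at chr9:57697363-57697612 (+), GRCm38.p6, is shown because this gene is the receptor's best known target, with the same letters in capitals.
Cyp1a1: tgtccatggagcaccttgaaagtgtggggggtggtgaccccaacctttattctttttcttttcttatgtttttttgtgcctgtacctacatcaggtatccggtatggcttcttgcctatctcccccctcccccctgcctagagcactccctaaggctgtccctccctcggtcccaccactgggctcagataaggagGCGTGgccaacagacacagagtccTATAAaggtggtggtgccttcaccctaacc
It held GCGTG 54 bases and TATAA 30 bases upstream.

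The Cyp3a genes, whose enzymes oxidise steroids, bile acids and a large share of drugs, counted 8 members. Cyp3a13, the only one measured on both arrays, stood at 480 and 169 signal units, a difference of −1.42 (2.68-fold lower, probe at chr5:138335412-138335471, mm9). Cyp3a57 went from 74.1 to 3.73, at least 4.02-fold lower, and Cyp3a25, whose probe is listed for Cyp3a59 too, from 39.1 to 4.45, at least 2.12-fold lower. With normexp both bounds were under 2-fold, at 1.76 for Cyp3a57 and 1.22 for Cyp3a25. Cyp3a59 went from 23.0 to 3.92, a bound of 1.25-fold, and the other 4 were above background on neither array. The 3 genes with a bound were above background on the WT-labelled array only, which fixed their direction. Cyp3a13 alone had a measured difference.

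The windows before the starts of Cyp3a57, chr5:145345019-145345268 (+), and Cyp3a25, chr5:146009618-146009867 (−), on GRCm38.p6, are shown as the most alike pair among the genes that were lower, identical over 88.1% of their aligned columns.
Cyp3a57: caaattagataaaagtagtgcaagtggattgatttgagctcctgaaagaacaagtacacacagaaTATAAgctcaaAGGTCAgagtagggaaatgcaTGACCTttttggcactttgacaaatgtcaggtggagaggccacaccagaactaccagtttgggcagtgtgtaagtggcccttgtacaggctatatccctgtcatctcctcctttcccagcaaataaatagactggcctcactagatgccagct
Cyp3a25: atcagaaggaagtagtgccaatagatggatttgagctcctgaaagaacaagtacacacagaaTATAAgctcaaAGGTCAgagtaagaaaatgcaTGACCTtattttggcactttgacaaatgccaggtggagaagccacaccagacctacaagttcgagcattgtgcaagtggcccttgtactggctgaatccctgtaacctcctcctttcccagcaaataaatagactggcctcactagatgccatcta
Each held AGGTCA in both orientations and TATAA once. In Cyp3a57 these stood 174, 153 and 185 bases upstream.

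Among the carboxylesterases, Ces2 and Ces4 carried the differences. Ces2 enzymes hydrolyse acylglycerols and drug esters in gut and liver. Ces2e had 488 signal units on the WT-labelled and 137 on the KO-labelled array, a difference of −1.75 (3.35-fold lower). Ces2g had 2158 and 694, a difference of −1.55 (2.93-fold lower). A further 3 Ces2 genes stayed within 2-fold, Ces2f at 221 and 156 (−0.42), Ces2b at 40.4 and 28.2 (−0.43) and Ces2c, whose probe is listed for the pseudogene Ces2d-ps too, at 32.7 and 39.3 (0.35). Ces2a went from 22.7 to 11.0, a bound of 1.23-fold, and Ces2h was above background on neither array.

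Ces4a is the only Ces4 gene on the array. Its single probe read 2064 signal units on the WT-labelled array and 8.02, not well above background, on the KO-labelled array, at least 112-fold lower, or at least 22.2-fold with normexp. Ces1 genes encode the main liver and lung carboxylesterases. Of 8 on the array, Ces1g went from 30.3 to 7.20, a bound of 1.65-fold, and 7 were above background on neither array, as were Ces3a, Ces3b and Ces5a. The Ces2, Ces3 and Ces4 genes lie together at chr8:107263207-107673659 on mm9, with 1 other measured gene between them, AI158980, at −0.85. The probes of the lower genes lie there at chr8:107458508-107458567 (Ces2e), chr8:107492279-107492338 (Ces2g) and chr8:107673600-107673659 (Ces4a). The window before Ces4a, chr8:105131550-105131799 (+) on GRCm38.p6, is shown as that of the member with the highest bound.
Ces4a: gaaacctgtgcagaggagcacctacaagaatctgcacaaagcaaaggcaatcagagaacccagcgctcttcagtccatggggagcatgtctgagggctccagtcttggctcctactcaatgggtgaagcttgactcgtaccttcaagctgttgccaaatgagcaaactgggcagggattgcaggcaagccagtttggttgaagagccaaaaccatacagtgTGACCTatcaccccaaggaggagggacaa
It held AGGTCA in reverse orientation 29 bases upstream and held neither TATAA nor GCGTG.

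RefSeq windows were matched by symbol for 85 of the 116 members, in 96 windows, and for 11 of the 12 members that were lower or had a 2-fold bound. Cyp2g1 was not matched. AGGTCA occurred in 6 of these 11 genes (Ces4a, Cyp2b19, Cyp2b9, Cyp2f2, Cyp3a25 and Cyp3a57), in 22.9% of the member windows and in 14.0% of all 32851 windows of that length. GCGTG occurred in 2 of the 11 (Cyp1a1 and Cyp2b10), in 14.6% of member windows and in 28.2% of all. TATAA occurred in 5 of the 11, in 46.9% of member windows and in 22.8% of all. Further motifs were searched. CCAAT occurred in 3 of the 11, in 45.8% of member windows and in 33.8% of all. The AP-1 site TGANTCA occurred in 1 of the 11 (5.21% and 6.75%) and the GC box GGGCGG in 1 (16.7% and 32.7%). The E-box CACGTG occurred in 0 of the 11 (2.08% and 6.02%). Counts of the 11 are of genes, and the shares are of windows. Related genes share their upstream letters, so these genes do not count as independent cases. A match describes the letters only, and no binding was measured.

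The Cyp genes at least 2-fold higher on the KO-labelled array numbered 2. Cyp4f18, which in myeloid cells inactivates leukotriene B4 by hydroxylation, was measured by 3 probes at 682 and 1648, 525 and 1243, and 56.1 and 126 signal units. Its difference was 1.31 ± 0.06 (SD, n = 3 probes), 2.48-fold higher, and the brighter pair of probes overlap over all but 1 base. Cyp21a1, the steroid 21-hydroxylase of the adrenal, read 89.2 and 187 on one probe, a difference of 1.15 (2.22-fold higher), while a second probe was above background on neither array, at 11.5 and 9.90. On mm9 the Cyp4f18 probes lie at chr8:74512381-74512441 and chr8:74513615-74513763 and the brighter Cyp21a1 probe at chr17:34938298-34938357. On the spike-in scale both genes fell short of 2-fold, at 0.84 for Cyp4f18 and 0.68 for Cyp21a1.

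The remaining Cyp4 genes, fatty acid and eicosanoid hydroxylases, lay near 0. The Cyp4 group counted 21 members, 7 of them measured on both arrays with a median of 0.24. Cyp4f13 gave different values on its probes, 201 and 200 signal units on one and 79.2 and 147 on the other, a difference of 0.53 ± 0.64 (SD, n = 2 probes). Cyp4v3, a fatty acid hydroxylase, stood at 0.46, Cyp4f16 at 0.24, Cyp4f17 at 0.19, Cyp4b1 at 0.16 and Cyp4a31 at −0.37. Cyp4f14 was above background on the KO-labelled array only, at 11.1 and 23.2 with a bound of 1.39-fold, and Cyp4b1-ps2 on the WT-labelled array only, with a bound of 1.14-fold.

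**Figure D3:**
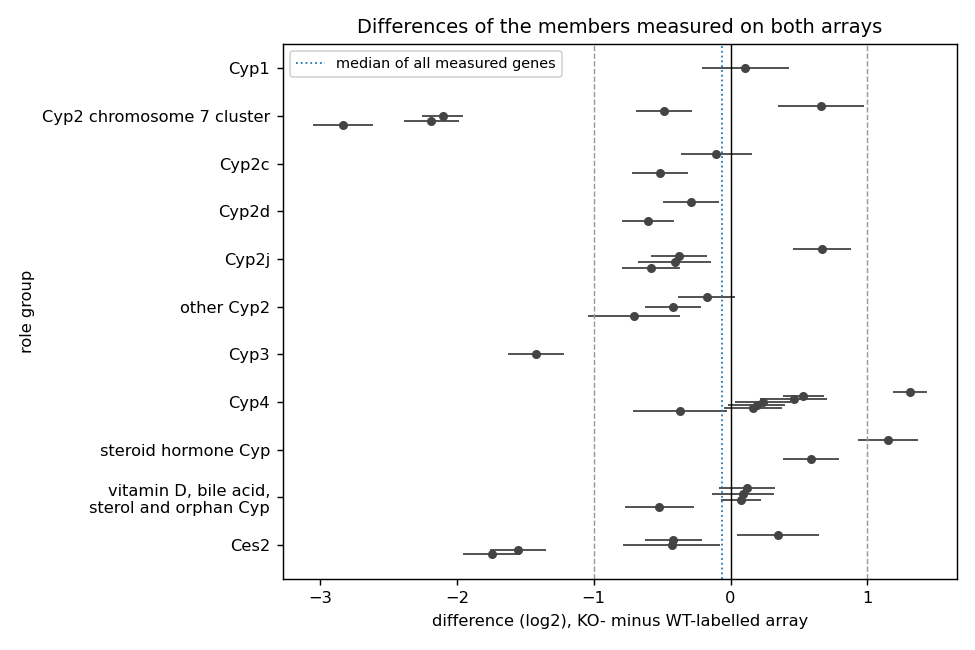
Log2 difference, KO-labelled minus WT-labelled array, of each of the 36 Cyp and Ces genes measured on both arrays, by role group, with bars of 1 scanner-software standard error and dashed lines at 2-fold. Points left of the lower dashed line are 3 of the chromosome 7 Cyp2 cluster, Cyp3a13 and 2 Ces2 genes, and points right of the upper one are Cyp4f18 and Cyp21a1.

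In steroid hormone synthesis, Cyp17a1, the 17α-hydroxylase and 17,20-lyase, was at 1101 and 1558 signal units, a difference of 0.59, short of 2-fold. Cyp11a1, Cyp11b1, Cyp11b2 and Cyp19a1, the side-chain cleavage enzyme, the last steps to corticosterone and aldosterone, and aromatase, were above background on neither array. Of 6 markers of steroid-producing cells 3 were measured on both arrays and none was 2-fold apart, and the summed level of these 3, over the same probes on both arrays and in multiples of the array's 75th percentile, was 12.2 and 10.1. Fdx1, also listed for electron supply, made up most of this sum, with 4306 and 3527 signal units on one probe (−0.30 over 2 probes). The acute regulator Star stood at 112 and 88.2 (−0.26) and the nuclear receptor Nr5a1 at 69.5 and 105 (0.69). Hsd3b6 was above background on the WT-labelled array only, with a bound of 1.51-fold. Hsd3b1 and the receptor of ACTH, Mc2r, were above background on neither array.

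In vitamin D, bile acid and sterol metabolism no measured member was 2-fold apart. Cyp2r1, a vitamin D 25-hydroxylase, stood at 339 and 283 signal units (−0.18), and Cyp27b1 and Cyp24a1, which make and break down the active hormone, were above background on neither array. Cyp7b1, the oxysterol 7α-hydroxylase, differed by 0.08 ± 0.10 (SD, n = 2 probes) and Cyp39a1, a further oxysterol hydroxylase, by 0.12. Cyp46a1, the cholesterol 24-hydroxylase, stood at 84.9 and 55.8 (−0.52). Cyp7a1, Cyp8b1 and Cyp27a1 of bile acid synthesis were above background on neither array. Cyp20a1, a P450 with no settled substrate, was the only member whose measured probes lay on different sides of 0, at 24.9 and 40.3 on one and 52.2 and 32.6 on the other, for a mean of 0.09 ± 0.97 (SD, n = 2 probes).

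The epoxygenases of arachidonic acid outside chromosome 7 were likewise within 2-fold. Of the Cyp2j genes, Cyp2j6 stood at 211 and 133 (−0.58), Cyp2j8 at 504 and 367 (−0.37), Cyp2j13, whose probe is listed for Cyp2j12 too, at 63.3 and 45.0 (−0.41) and Cyp2j9 at 123 and 184 (0.67). Of 16 Cyp2c genes 14 were above background on neither array, with Cyp2c38 at 3390 and 2232 (−0.52) and Cyp2c70 at 48.3 and 42.3 (−0.11). Of 10 Cyp2d genes, drug oxidases, 8 were above background on neither array, with Cyp2d11 at 523 and 403 (−0.29) and Cyp2d26 at −0.60 ± 0.35 (SD, n = 2 probes). Cyp2u1, a long-chain fatty acid hydroxylase, was bright on both arrays at 57778 and 40665 signal units (−0.42), though its 2 other probes were not well above background on both. Cyp2w1, a P450 described in tumours, stood at 41.8 and 24.2 (−0.70), and the ethanol-oxidising Cyp2e1 was above background on the KO-labelled array only, at 12.1 and 19.3.

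The genes listed for the electron and haem supply of P450s were mostly below 0 and within 2-fold. The list also holds Hmox1 (−0.38) and Hmox2 (−0.20), whose enzymes break haem down. Of 14 genes listed, 13 were measured, with a median of −0.35 and 12 of the 13 below 0. Por, the cytochrome P450 oxidoreductase on which all microsomal P450s depend, had 9968 and 5073 signal units, a difference of −0.89. Pgrmc2, a haem-binding partner of P450s, was the 1 gene at least 2-fold lower, at 643 and 272 (−1.16). Over all measured genes 5.04% were this much lower. Alas1, the first enzyme of haem synthesis, stood at −0.32 ± 0.10 (SD, n = 3 probes).

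Of 23 receptors and sensors that regulate Cyp and Ces genes, 16 were measured, 2 of them were at least 2-fold lower, none higher, and the median was 0.09. Over all measured genes, 5.04% were this much lower and 4.82% this much higher. Ahr, the aryl hydrocarbon receptor, stood at 970 and 1307 signal units (0.51), and its repressor Ahrr was above background on neither array. Tiparp, a target and inhibitor of the aryl hydrocarbon receptor, was lower at 3390 and 1420 (−1.17), as was Rora, an orphan nuclear receptor, at −1.57 ± 0.28 (SD, n = 2 probes). Nr1i3, the receptor CAR that drives Cyp2b10 in liver, stood at 32.4 and 60.2 (0.98), and Nr1i2, the receptor PXR of the Cyp3a genes, was above background on neither array.

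Of 24 other oxidative and hydrolytic enzymes of drug metabolism listed, 16 were measured, at a median of −0.27. Of the 16, 3 were at least 2-fold lower and 1 higher, beside 5.04% and 4.82% of all measured genes. Aox4, an aldehyde oxidase known from Harderian gland and skin, went from 744 to 69.3 signal units (−3.34), and Aox1, a second aldehyde oxidase, from 62.5 to 177 (1.59). Aadac, an ester hydrolase of liver and gut, went from 3268 to 564 (−2.45). Ephx3, an epoxide hydrolase of epidermal lipids, was at −1.26 ± 0.19 (SD, n = 2 probes). Maob, an amine oxidase, was above background on the WT-labelled array only, at least 5.56-fold lower. Fmo1, a flavin monooxygenase, was above background on the KO-labelled array only, at least 3.39-fold higher. Each bound rests on 1 probe, and the further probes of these genes were above background on neither array. No normexp bound was computed for either gene.

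Of 28 conjugating enzymes listed, 24 were on the array and 11 were measured, at a median of −0.11. At least 2-fold lower were 4 of the 11, beside 5.04% of all measured genes, and none was higher, beside 4.82%. The count of lower genes was 3 under quantile and cyclic loess normalization and with the deposited values, and 1 with normexp. The median was above 0 with the first 3 of these (0.028 to 0.056). Without the filter on dim probes the median was also above 0 (0.074), beside 0.049 over all genes. The 4 were Ugt1a6b, a glucuronosyltransferase, at −1.68 ± 0.67 (SD, n = 3 probes), whose exons are partly shared with other Ugt1a genes, the sulfotransferases Sult4a1 at −1.40 and Sult5a1 at −1.07, and Sult2b1, the cholesterol sulfotransferase of the epidermis, which had 20023 and 8964 signal units (−1.07).

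**Figure D4:**
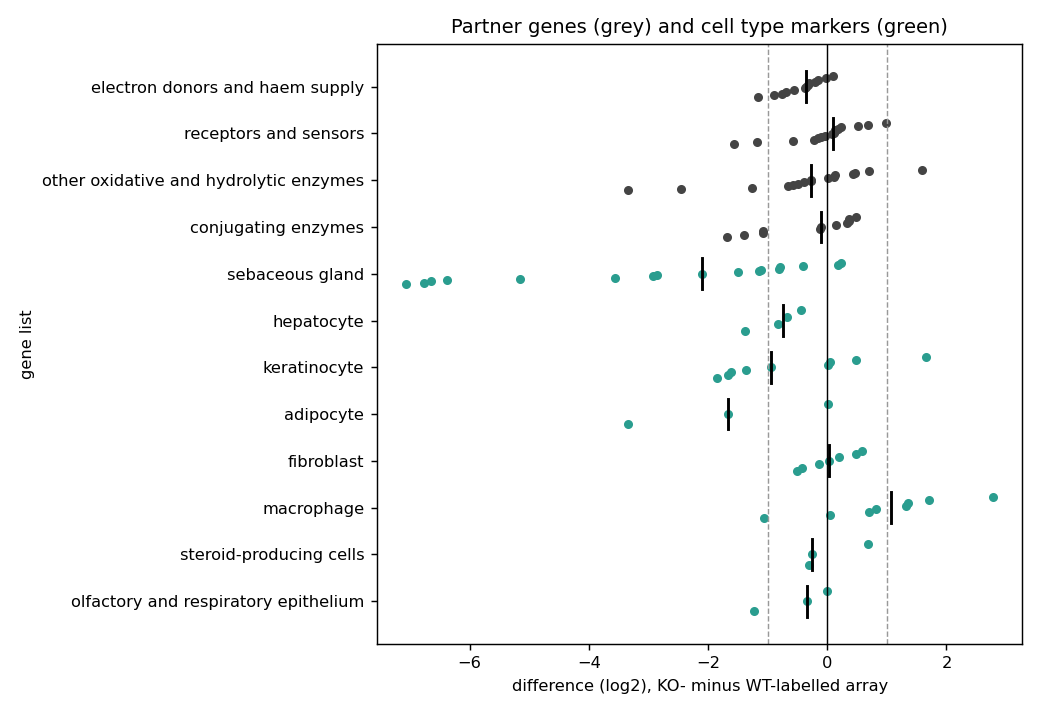
Log2 difference, KO-labelled minus WT-labelled array, of each measured gene (points) in the lists of partner genes (grey) and of cell type markers (green), with the list's median as a bar and dashed lines at 2-fold. The sebaceous gland markers reach furthest left, to −7.06 for Fa2h, and the macrophage markers lie mostly right of 0.

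Markers of several cell types differed between the arrays alongside the Cyp and Ces genes. In RNA of whole tumours, fewer cells of a type and less RNA per cell cannot be told apart. Of 18 sebaceous gland markers 17 were measured, 12 of them at least 2-fold lower and none higher, at a median of −2.11. Shares of 5.04% lower and 4.82% higher over all measured genes stand beside this and the marker counts below. The 18th, Plin5, was above background on neither array. Fa2h, which hydroxylates the fatty acids of sebum, went from 21553 to 152 signal units (−7.06), and the wax synthase Awat1 from 5208 to 45.1 (−6.77). These were the markers furthest below 0. Pparg (0.22) and Acsbg1 (0.18) lay above 0, and Krt79 (−0.40), Dgat2 (−0.80) and Prdm1 (−0.80) were lower by less than 2-fold. The summed level of the measured markers, over the same probes on both arrays, was 606 on the WT-labelled and 252 on the KO-labelled array. The part of these cells in the lower Cyp2, Cyp3, Cyp1a1, Ces2 and Ces4a signals was not tested.

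Among 9 keratinocyte markers, Krt1 (−1.62), Krt10 (−1.37), Dsg1a (−1.66) and Casp14 (−1.85) of the differentiating layers were at least 2-fold lower and Krt5 of the basal layer was higher (1.66), while the basal markers Krt14 (0.01), Krt15 (0.05) and Trp63 (0.48) were within 2-fold, and the summed level was 1989 and 1776. Of 7 adipocyte markers 3 were measured and 2 were lower, with a summed level of 46.1 and 15.9, while Adipoq and Plin1 were above background on neither array. Of 8 macrophage markers 4 were higher and 1, Mrc1, lower, with a summed level of 11.3 and 23.7. The part of macrophages in the Cyp4f18 signal, and of keratinocytes and adipocytes in the lower genes, was not tested. The 7 fibroblast markers were all within 2-fold, at a median of 0.03.

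Markers of tissues for which many members are best known were scarce. Of 11 hepatocyte markers 6, among them Alb, Ttr, Fga and Fgb, were above background on neither array, and the gene for tyrosine aminotransferase, Tat, was on the WT-labelled array only. The 4 measured were all below 0 at a median of −0.75, with Ahsg, the secreted protein fetuin-A, at least 2-fold lower at −1.37 and the apolipoprotein Apoc3 at −0.82, and their summed level was 2.69 and 1.83. The part of hepatocyte transcripts in the lower Cyp and Ces signals was not tested. Of 5 markers of olfactory and respiratory epithelium 3 were measured, at a median of −0.34. Omp, a protein of olfactory neurons, stood at 71.2 and 28.5 signal units (−1.23), Gnal at 79.4 and 59.2 (−0.34) and Bpifa1, the brightest, at 361 and 338 (−0.01). The airway marker Scgb1a1 was above background on the WT-labelled array only and Foxj1 on neither. The summed level of the 3 measured was 1.48 and 1.30.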

How the data were processed

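Per the file headers and the submitters' processing notes, the authors took spot intensity values from Agilent Feature Extraction 10.7.1.1, with its background subtraction and detrending, and both arrays shared 1 slide and 1 scan. A table of log2 values that the authors deposited for the same arrays served as an alternative. How it was made is not stated in the sources, and its scale, centring and direction were read from its match to the scanner signals (r = 0.9999 and 0.9997). Both of its columns had a median of 4.96.

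Of 59305 non-control spots, outlier spots (102 and 105) were left out, and no spot was saturated. Each probe's log2 processed signal was scaled by subtracting the 75th percentile of its array. A gene's value was the mean over probes well above background on both arrays, as marked by the scanner software. It marked 57.8% of the non-control spots on the WT-labelled and 57.9% on the KO-labelled array. Symbols were updated through RefSeq accessions, which matched 136 of 153 member probes and renamed 2. Probe positions are mm9 as in the array files, and exon, intron or UTR position was not analysed here. Promoter windows are RefSeq's on GRCm38.p6. No test was possible with 1 array per genotype, so 2-fold served as a rule of size. The computation was tested on simulated data. Alternatives covered background correction (normexp, offset 50), scaling, the dim-probe filter, probe choice, outlier spots, gene names and the deposited values. Python 3.11.15 and R 4.3.3 with limma 3.58.1 were used.

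Genes were named where at least 2-fold apart or bounded at 2-fold, where their role or disagreeing probes called for it, or as Por, Ahr, Nr1i2 or Nr1i3. Other genes named with values, and the genes shown with sequences, were chosen after their values were seen. The members and lists were chosen with earlier results of these data known.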

Additional observations from a re-analysis of the deposited data

How the results depend on the processing

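The 6 genes measured on both arrays and at least 2-fold lower on the KO-labelled array stayed past 2-fold under all 11 alternatives run. Cyp21a1 did so under 8 and Cyp4f18 under 10. None of these 8 differences turned its sign; partner and marker genes were checked as lists only. Of the gene values under alternatives 346 moved by less than their error and 52 by more, 36 of these on the spike-in scale. That scale lowers every value by 0.47 by construction: it gave 7 Cyp genes lower and 0 higher, medians of −0.65 (Cyp) and −0.90 (Ces), 5 electron and haem supply genes lower at a median of −0.82, a receptor median of −0.38 with 3 lower, 5 other oxidative enzymes lower at −0.74 and a conjugating median of −0.58. Without the filter on dim probes, where all 116 members count, 13 Cyp genes were lower and 5 higher, the Cyp median was 0.061, 4 Ces genes were lower at a median of 0.045, 1 receptor was lower and 1 higher, and 2 other oxidative enzymes were higher. Keeping probes by a mean log2 signal of at least 6 gave medians of −1.65 (Ces, with Ces4a counted) and −0.60 (conjugating). Normexp left 1 Cyp gene higher, 1 conjugating enzyme lower and 4 rather than 6 members with a 2-fold bound (not Cyp3a25 and Cyp3a57), and quantile normalization 1 receptor lower, and the conjugating enzymes lower were 3 under quantile, loess and the deposited values; the cause was not tested. Over all genes, normexp left 578 lower and 368 higher, the spike-in scale 3198 and 315, and no filter 2135 and 2244. Without the filter the median of all genes was 0.049. No paired analysis was possible because each genotype had 1 array. Signals near background limit 80 of the 116 members to a bound or to no comparison.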

Other observations

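Probes of a gene disagreed on whether it was above background in several members. Cyp2u1 read 57778 and 40665 signal units on one probe, 20.6 and 18.2 on another and 3.99 and 9.93 on the third, which was above background on neither array. Cyp20a1 had a further probe at 28.5 and 17.4, above background on the WT-labelled array only, beside the pair with differences of 0.78 and −0.59. Of 6 members with several probes measured on both arrays, 1 had probes on different sides of 0.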
